A study of Mus musculus with 6 samples.

Results

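Bmal1 knockout cells (Bmal1KO) were compared with wild-type cells for acetylation of histone H3 at lysine 27 (H3K27ac), measured by ChIP-seq, in which chromatin bound by an antibody is sequenced and set against unselected input chromatin. The 4 libraries concerned, of 6 in the series, were 1 ChIP and 1 input library of each genotype. All came from RAW264.7, a mouse macrophage-like line transformed by Abelson leukaemia virus, and the cells labelled wild type are titled naive. The labels name no treatment, and they do not say whether the knockout is a single clone or a pool, so a difference between genotypes cannot be told apart from one between clones or between libraries. The comparison covered chromosomes 1 to 19. On them the wild-type list held 28644 peaks and the Bmal1KO list 25190 peaks, and peaks sharing at least 1 bp were merged into 34415 regions.

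BMAL1 is a transcription factor that pairs with CLOCK on E-box elements of DNA and drives the genes of its own repressors, the PER and CRY proteins, which closes the main feedback loop of the circadian clock. The pair is known to work with histone acetyltransferases. In macrophages the clock is known to time cytokine and chemokine genes. H3K27ac is laid down by the acetyltransferases CBP and EP300 and marks active promoters and enhancers. Promoters usually carry it as compact, dense blocks, and groups of enhancers as broader and sparser ones.

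Sequencing depth differed between the ChIP libraries, at 15.8 M tags in wild type and 12.5 M in Bmal1KO, a ratio of 0.794. By the authors' headers, 38.7% and 37.4% of tags lay in peaks. All tag values below are the authors' tags per peak, scaled to 10 M tags of the library and summed per region. Length means the sequence called as peak, and density means tags per kb of called sequence. A 500 bp window needed 10 tags in wild type and 9 in Bmal1KO, which after scaling is 12.7 and 14.4 tags per kb, so Bmal1KO had the higher bar. With 1 library per genotype no difference could be tested between genotypes and no p-value is given. Intervals on tag ratios are exact 95% binomial intervals that cover counting only, and tags need not be independent molecules. Positions are in mouse build mm39. No region was assigned to a gene, since the gene table used here is of an earlier build. For that reason neither the Bmal1 gene nor macrophage marker genes were used to check the labels.

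The total of scaled H3K27ac tags in peaks was nearly equal, whereas the sequence it covered was not. Tags are scaled to each library, so this total does not give the amount of H3K27ac per cell. Bmal1KO peaks held 96.2% of the wild-type tags in 70.0% of the wild-type length, 44.8 Mb against 64.0 Mb. Overall density was therefore higher in Bmal1KO, at 81.6 tags per kb against 59.4. Regions called in both genotypes numbered 17255, or 50.1% of all regions, and held all but 4.98% of the wild-type and 2.49% of the Bmal1KO tags. Within them the tag sum in Bmal1KO was 98.7% of wild type and the called length 75.6%. Density over the sum of these regions was 66.9 tags per kb in wild type and 87.3 in Bmal1KO. The median region differed little, at 39.7 tags per kb in wild type and 38.7 in Bmal1KO. Density was lower in Bmal1KO in 8181 of these regions and higher in 9074. Regions called in wild type alone numbered 11155 and regions called in Bmal1KO alone 6005.

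Single regions spread widely around this near-equal total. For regions called in both, the median was 122.5 tags in wild type and 94.9 in Bmal1KO. The median log2 ratio of tags, Bmal1KO over wild type, was -0.25, with quartiles of -0.90 and 0.34. Tags were lower in Bmal1KO in 10449 regions and higher in 6794. At least 2-fold lower tags were found in 3798 regions, 22.0% of those called in both, and at least 2-fold higher tags in 941, or 5.45%. The whole counting interval lay beyond 2-fold in fewer regions, 1792 lower and 309 higher. Across regions the tags of both libraries kept a similar order, with a Spearman correlation of 0.90 as a description over 17255 regions that differ in length. Of the 500 regions with most tags in wild type, 273 were among the 500 with most tags in Bmal1KO, or 54.6% of each list.

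**Figure D1:**
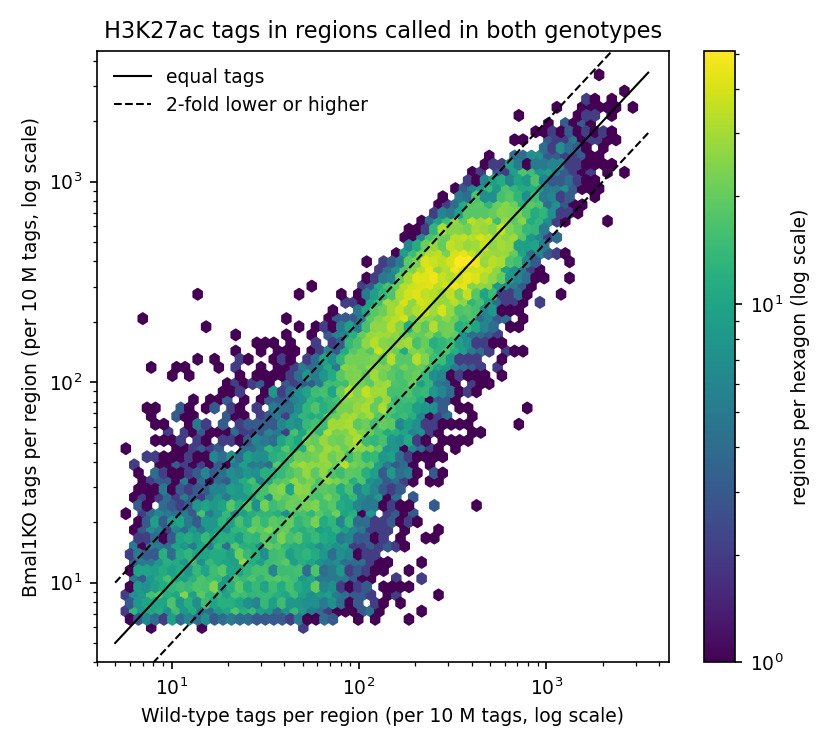
H3K27ac tags of the 17255 regions called in both genotypes, wild type on the x axis and Bmal1KO on the y axis, in tags per 10 M tags on log axes, with colour giving regions per hexagon. Strong regions lie around or above the line of equal tags, and many weaker ones lie below the lower dashed line, where Bmal1KO tags are at least 2-fold lower (3798 regions).

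Most of the 2-fold lower values went with a shorter called length. Of the 3798 regions, 2526 also had an at least 2-fold lower length, 144 an at least 2-fold lower density, and 1189 neither of these. Over all regions called in both, length was at least 2-fold lower in 2869 regions (16.6%) and at least 2-fold higher in 285 (1.65%). Density was at least 2-fold lower in 179 regions (1.04%) and at least 2-fold higher in 989 (5.73%). It covers called sequence alone, for which the authors' tag minimum came to 14.4 tags per kb in Bmal1KO and 12.7 in wild type. This bar is not strict for a whole peak, since joint density over both libraries went down to 11.5 tags per kb. Sparse regions thus had little room to be 2-fold lower in density, and lower tags there appear mainly as shorter length. The files hold no tags for sequence outside a peak, so a stretch that just misses the bar counts as empty. If every uncalled stretch of a merged region is given the authors' tag minimum of that library, 408 regions (2.36%) remained at least 2-fold lower and 615 (3.56%) were at least 2-fold higher. Lower regions then made up 39.9% of those beyond 2-fold, against 80.1% with uncalled stretches empty. The filling adds more to Bmal1KO, whose tag minimum is higher and whose called length is shorter, so this shift is partly built in. Filled values are limits and no estimate of the tags in uncalled stretches. The median log2 ratio was -0.10 with this filling, which was added once the values were known.

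Density separated the regions that were lower in Bmal1KO from those that were higher. Regions were divided into 4 groups of equal size by joint density, which is the tags of both libraries over the length of both. In the sparsest group, median tags were 29.4 in wild type and 15.2 in Bmal1KO, and called length was 1516 and 792 bp. There the median log2 tag ratio was -0.78, and 41.7% of regions were at least 2-fold lower against 4.20% at least 2-fold higher. These low values count uncalled stretches as empty. With such stretches at the tag minimum, the median log2 ratio of the sparsest group was -0.18, and 2 of its 4314 regions were at least 2-fold lower and 1 at least 2-fold higher, where 1801 and 181 were so before. Joint density in this group was at most 24.0 tags per kb, and the filling gives 14.4 in Bmal1KO and 12.7 in wild type. Hardly any region could then be beyond 2-fold, so these filled counts cannot decide whether tags differed. The second group had a median log2 ratio of -0.76, and -0.43 with the filling, where 236 regions were lower and 57 higher by at least 2-fold. In the third group the median log2 ratio was 0.05. In the densest group, median tags were 400.5 in wild type and 455.5 in Bmal1KO, with a median log2 ratio of 0.25. There 1.58% of regions were at least 2-fold lower and 8.69% at least 2-fold higher, and the filled median was 0.26, with 56 regions lower and 385 higher.

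Length and density moved apart in the dense regions. In the densest group Bmal1KO peaks were shorter, 2904 against 3263 bp at the median, but held 153 tags per kb against 119 in wild type. In the sparsest group density was nearly equal, 18.0 against 19.6 tags per kb, where the authors' tag minimum came to 14.4 and 12.7. Median input per kb was 8.40 in wild type and 8.46 in Bmal1KO for the densest group. In the sparsest group it was lower in Bmal1KO, at 2.63 against 3.11, and its part there was not tested. The part of depth and of the tag minimum in the sparse regions was not separately tested. With uncalled stretches at the tag minimum, the gap between the median log2 ratios of the densest and sparsest group was 0.44, against 1.03 with them empty. The gap kept its direction when groups were taken from one library alone, at 0.75 by wild-type and 1.41 by Bmal1KO density. Each grouping shares tags with the ratio, which can raise the gap by Bmal1KO density and lower it by wild-type density.

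**Figure D2:**
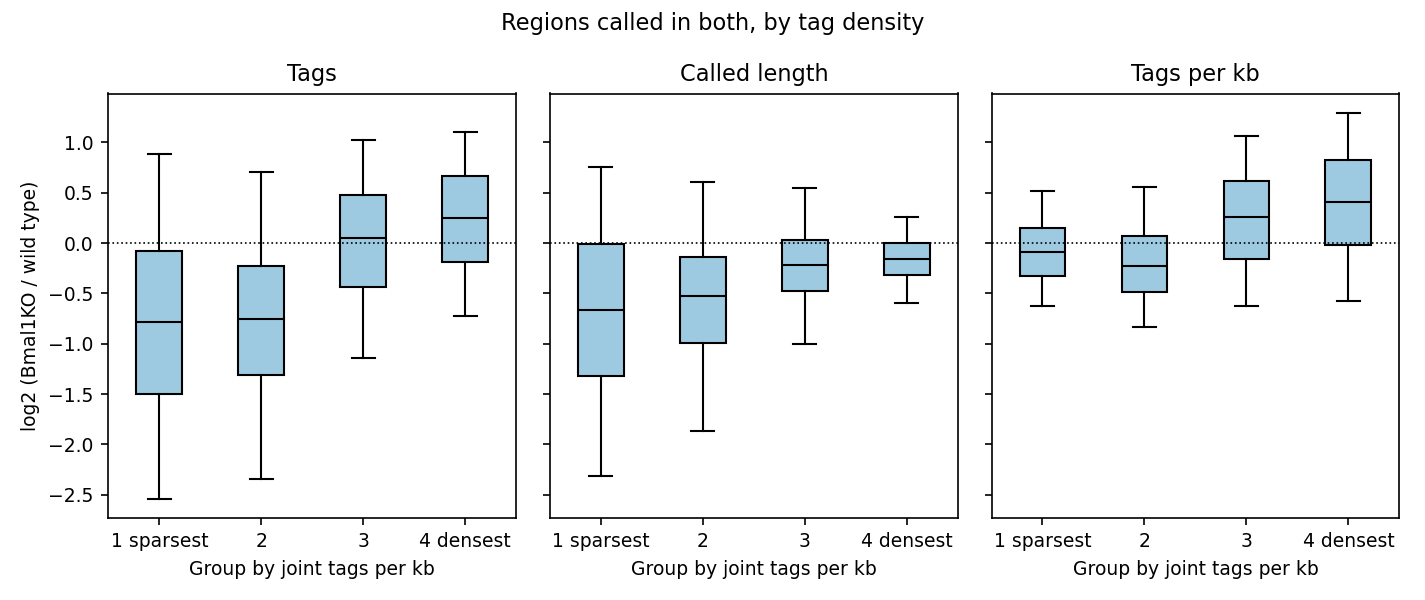
Log2 ratio of Bmal1KO over wild type for tags, called length and tags per kb (y axis) in 4 groups by joint tags per kb (x axis), for regions called in both. Boxes span the quartiles with the median as a line and whiskers reach the 5th and 95th percentiles: tags pass from a median of -0.78 to 0.25, while length stays below 0 at the median in all 4 groups.

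Breadth added to the contrast. The merged span of a region, from its first to its last called base, was also divided into 4 groups. Among the sparsest regions the median log2 tag ratio was -0.45 in the shortest group by span, -1.16 in the second, -1.61 in the third and -1.57 in the longest. Among the densest regions it was 0.74 in the shortest group, which held only 32 regions, 0.50 in the second, 0.25 in the third and 0.09 in the longest. At each density the shortest regions thus had a higher median ratio than the longest ones. Span is itself longer where either list called more sequence, so it shares information with the ratio.

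**Figure D3:**
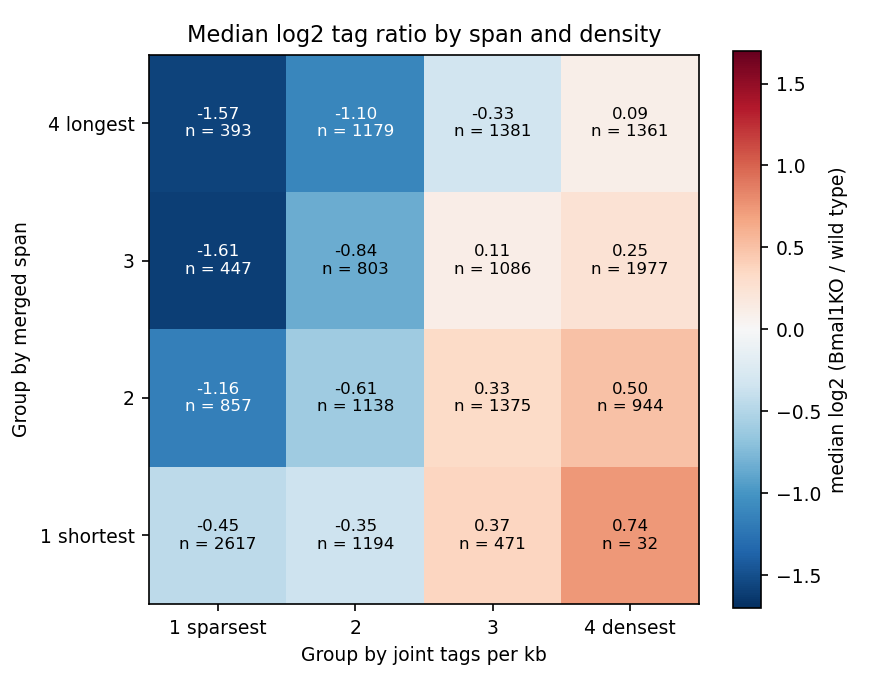
Median log2 tag ratio, Bmal1KO over wild type, in 16 classes of regions called in both, by group of joint tags per kb (x axis) and of merged span (y axis), with the number of regions in each. Long sparse regions are lowest (-1.57 and -1.61) and short dense ones highest (0.74).

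Peak borders lay further inward in Bmal1KO. Of the regions called in both, 13129 were shorter in Bmal1KO, 3863 were longer and 263 were equal. A single peak in each genotype was found in 15569 regions. In 7831 of these (50.3%) the Bmal1KO peak lay inside the wild-type peak at both ends, whereas in 1458 (9.36%) the wild-type peak lay inside the Bmal1KO peak. The other regions were shifted or shared a border. A Bmal1KO border lay 195 bp inside the wild-type border at the median, with quartiles of -49 and 522 bp, where a negative value is outside. Single wild-type peaks were replaced by several Bmal1KO peaks in 1457 regions, with up to 8 pieces, and several wild-type peaks by 1 Bmal1KO peak in 188. The 1457 divided regions had a median of 247 tags over 6033 bp in wild type and 124 tags over 3609 bp in Bmal1KO. The 188 joined regions had 94.2 tags in wild type and 120.5 in Bmal1KO. Choosing regions by their pieces sets these directions in part, since the gaps between pieces count as empty. The median log2 tag ratio of the divided regions was -0.91, and -0.47 with the gaps and other uncalled stretches at the tag minimum. That of the joined regions was 0.31, and 0.24 with the filling.

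Merged regions of 10 kb or more were shorter in Bmal1KO almost throughout. There were 340 of them, of which 318 were a single wild-type peak, and 329 had less called sequence in Bmal1KO. Their length was 4.81 Mb in wild type and 3.11 Mb in Bmal1KO, while density was 55.4 and 58.2 tags per kb. In 262 of the 340 the Bmal1KO list had more pieces than the wild-type list. Tags were at least 2-fold lower in 146 (42.9%, against 22.0% of all regions called in both) and at least 2-fold higher in 0. With uncalled stretches at the tag minimum, 27 remained at least 2-fold lower. Since a long wild-type peak by itself makes a region long, these regions are partly chosen on the wild-type list.

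Regions with the lowest ratios were mostly wild-type peaks of several kb of which a short remnant was called in Bmal1KO. The 10 lowest ratios among the 9076 regions with at least 100 mean tags were taken, where 9.44% were at least 2-fold lower. These 10 had 7.18 to 60.2 Bmal1KO tags and so passed that minimum only through wild type, which sets their form in part. The lowest lay on chromosome 7 (132287579-132296398), with 266.6 tags over 8788 bp in wild type and 8.78 tags over 500 bp in Bmal1KO. Its wild-type enrichment over input was only 4.45-fold, where the authors' limit was 4-fold. A chromosome 2 region (46128371-46138579) held 207.7 tags in 10208 bp of wild-type peak and 7.18 tags in 500 bp of Bmal1KO peak. This is a sparse block, at 20.4 tags per kb in wild type, and with the filling it was 1.42-fold lower. On chromosome 8 (38345313-38371664) a single wild-type peak spanned 26351 bp with 720 tags, and Bmal1KO had 5 peaks covering 3712 bp with 60.2 tags. The broad chromosome 8 block was 1.87-fold lower with the filling.

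The filling at the tag minimum is not the only limit on an uncalled stretch. The authors also required 4-fold enrichment over input, so a stretch with more tags than the minimum could have been dropped, and 4 times the input per kb of the other genotype's peak gives a higher limit where input is high. This larger limit was added after the data were seen and takes the input of both libraries as alike. Under it, 200 of the 17255 regions called in both were at least 2-fold lower and 460 at least 2-fold higher. A chromosome 6 region (94258927-94262063) held 427 tags in 3136 bp in wild type, against 23.1 tags in 681 bp in Bmal1KO. Density there was 136 tags per kb in wild type and 33.9 in Bmal1KO. The log2 tag ratio was -4.21, with a counting interval of -4.80 to -3.67, and Bmal1KO was 7.32-fold lower with the filling and 2.78-fold lower under the larger limit. On chromosome 11 (30216510-30219122) the values were 207.7 tags over 2512 bp and 12.4 tags over 500 bp, with 4.89-fold lower tags in Bmal1KO under the filling and 1.95-fold under the larger limit. In both regions the Bmal1KO remnant had about the lowest enrichment the authors allowed, at 4.59-fold and 4.56-fold over input. On chromosome 17 (37833439-37839969) wild type had 217.8 tags and Bmal1KO 10.4, or 2.33-fold lower under either limit. The remaining 4, on chromosomes 12 (114171425-114179243), 19 (34491352-34501152), 4 (141803793-141810810) and 9 (107999834-108007182), had 210.9 to 260 wild-type and 10.8 to 17.6 Bmal1KO tags. Density was lower in Bmal1KO in all 10, where 8181 of the 17255 regions called in both were so. The 10 were chosen by their tags, which also enter density, so this is partly built in. The filled value was beyond 2-fold in 6 of the 10. Under the larger limit it was beyond 2-fold in 2, the regions on chromosomes 6 and 17. The chromosome 7 region was then 1.13-fold and the chromosome 9 region 1.11-fold lower.

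**Figure D4:**
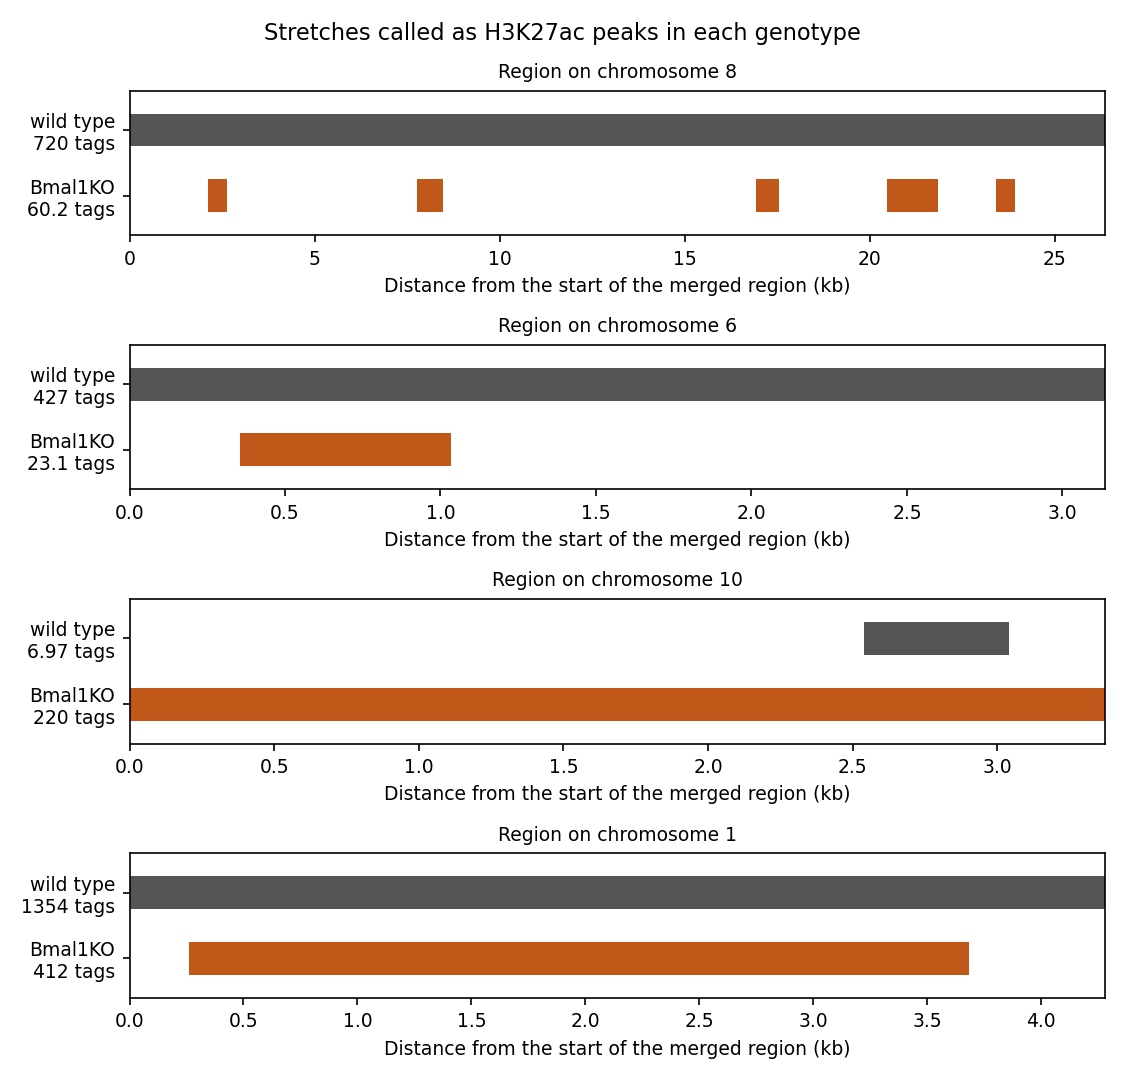
Stretches called as peaks in wild type (grey) and Bmal1KO (orange) in 4 merged regions, with the x axis in kb from the start of the region and the tags of each genotype at the left. The chromosome 8 block is 1 wild-type peak and 5 Bmal1KO peaks, chromosome 6 keeps a short Bmal1KO remnant, chromosome 10 is the opposite case, and chromosome 1 has peaks of like length with 1354 and 412 tags.

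Regions with the highest ratios were ranked in the same way, and most passed the minimum of 100 mean tags through Bmal1KO, where they were high. Of the 9076 regions with at least 100 mean tags, 505 (5.56%) were at least 2-fold higher. The highest ratio was on chromosome 10 (61900020-61903392), with 6.97 tags over 500 bp in wild type and 219.8 tags over 3372 bp in Bmal1KO. Density was 13.9 and 65.2 tags per kb, and Bmal1KO was 5.07-fold higher with the filling and 3.13-fold under the larger limit. On chromosome 12 (112878265-112882932) wild type had 13.9 tags and Bmal1KO 277.6, though the Bmal1KO peak was only 4.81-fold over input, and under the larger limit the difference was 1.26-fold. On chromosome 4 (156367804-156370735) the values were 23.1 and 177 tags. On chromosome 8 (71248552-71251618) they were 46.5 and 283.6 tags, at an equal density of 93.0 and 92.5 tags per kb, so the difference there was one of called length, and under the larger limit it was 1.58-fold. On chromosome 15 (75852197-75854604) they were 56.4 and 317.5 tags, at 72.4 and 132 tags per kb. These 5 regions had the highest ratios of the 9076.

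The other 5 of the 10 highest were on chromosomes 1, 3 and 15. On chromosome 1 (33707689-33710278) wild type held 42.1 tags against 205 in Bmal1KO. A further region of chromosome 1 (91383435-91388226) had 114 and 409 tags, and one more there (170929428-170931067) had 82.9 and 264.9. Chromosome 3 (108498543-108500511) had 41.8 and 170 tags, and chromosome 15 (72930731-72933941) 49.7 and 188. In these 5 the wild-type density was 31.3 to 53.6 tags per kb and the Bmal1KO density 58.5 to 170. All 10 were beyond 2-fold with the filling, and 6 of the 10 under the larger limit. The wild-type peak had under 6-fold enrichment over input in 6 of the 10, close to the limit of calling. Of all 28644 wild-type peaks, 18515 had at least 6-fold.

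Where both genotypes called nearly the same length, more regions were higher than lower in Bmal1KO. A called length ratio of at least 0.8, shorter over longer, was found in 7505 regions, or 43.5% of those called in both, a class defined once the values were known. Their median was 201 tags in wild type and 239 in Bmal1KO, a median log2 ratio of 0.11. At least 2-fold lower tags were found in 100 (1.33%) and at least 2-fold higher in 390 (5.20%). Of those with at least 100 mean tags, 5336 in number, 68 were at least 2-fold lower and 361 at least 2-fold higher. Tag ratios here depend little on called length, but the total to which each library is scaled still sets where 0 lies. Requiring like length also leaves out regions whose lower tags went with a shorter length in Bmal1KO. The split between lower and higher regions in this class is therefore partly built in.

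Among regions of like length with at least 100 mean tags, the 5 lowest and the 5 highest ratios were taken. Both sets of 5 that follow were chosen after their values were seen. A chromosome 7 region (45277361-45279245) held 190.9 tags in 1424 bp in wild type, against 33.9 tags in 1238 bp in Bmal1KO, a 5.63-fold difference. Its input density also differed, at 23.6 per kb in wild type and 5.03 in Bmal1KO, and the part of input in this region was not tested. A chromosome 1 region (177083883-177088162) held 1354 tags in 4279 bp in wild type, against 412 in 3424 bp in Bmal1KO, with 316 and 120 tags per kb. The log2 ratio of this strong region was -1.72, with a counting interval of -1.86 to -1.58. On chromosome 2, wild type and Bmal1KO had 547 and 179 tags in one region (6326163-6329143) and 473 and 139.6 in another (156918928-156922261). On chromosome 11 (59386725-59390202) they had 169.7 and 51.9 tags.

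On the higher side, the 5 regions of like length lay between 3.03-fold and 3.20-fold. Under the larger limit all 5 lower and all 5 higher regions were beyond 2-fold. A chromosome 8 region (34620648-34622913) held 130 tags in 2000 bp in wild type, against 413 in 2265 bp in Bmal1KO. On chromosome 10 (78247563-78249608) the values were 131 and 413 tags. On chromosome 11 (51509426-51512667) they were 184.6 and 564, and on chromosome 19 (60213626-60215935) 168 and 511. The fifth was the region of chromosome 1 with 82.9 and 264.9 tags given above. All 5 were compact, with 1558 to 2809 bp called in Bmal1KO, and had 6.82-fold to 11.6-fold enrichment over input in wild type and 19.5-fold to 34.7-fold in Bmal1KO.

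Regions called in 1 genotype alone were short and mostly weak on both sides. The 11155 wild-type regions without a Bmal1KO peak had a median of 10.4 tags over 636 bp, and the 6005 Bmal1KO regions without a wild-type peak 9.97 tags over 500 bp. Enrichment over input was under 6-fold in 50.3% of the former and 52.7% of the latter. In the whole lists, 18515 of 28644 wild-type and 17082 of 25190 Bmal1KO peaks had at least 6-fold. Of the 11155 wild-type regions 13.3% lay within 1 kb of a Bmal1KO peak and 10.5% were over 50 kb from one. Of the 6005 Bmal1KO regions 19.5% lay within 1 kb of a wild-type peak and 13.8% were over 50 kb from one. At least 100 tags were found in 92 wild-type and 49 Bmal1KO regions, or 0.943% and 0.575% of all regions of that strength in each list.

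The peak lists used here give no tag value where no peak was called, so only limits can be given. An uncalled stretch at the tag minimum gives one limit. The authors' filter also removed stretches under 4-fold over input, and the input of the calling library, multiplied by 4, gives another, if the input of the other library is alike. Under the larger of both limits, 42 of the wild-type regions were at least 2-fold lower in Bmal1KO, or 0.377%, and 38 of the Bmal1KO regions at least 2-fold lower in wild type, or 0.633%. For the tag minimum alone the numbers were 551 and 872.

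The strongest wild-type region without a Bmal1KO peak lay on chromosome 10 (31483257-31486934), with 505 tags over 3677 bp and 15.6-fold enrichment over input. The nearest Bmal1KO peak was 292533 bp away. At the tag minimum Bmal1KO would hold 52.8 tags, at least 9.56-fold lower, and under the input limit 129 tags, at least 3.91-fold lower. The next was on chromosome 6 (49187158-49193235), with 356 tags and a Bmal1KO peak 1970 bp away, and under the larger limit it was at least 1.42-fold lower. The chromosome 3 region (148693153-148696335) had 309 wild-type tags, with the nearest Bmal1KO peak 2134437 bp off. Chromosome 5 (64959427-64962617) followed with 293 tags and chromosome 2 (35145340-35151187) with 284. Of these 5, the chromosome 10 region alone was beyond 2-fold under both limits.

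Among Bmal1KO regions without a wild-type peak, the one with most tags stood apart in its input. It lay on chromosome 11 (3142967-3144219), with 2616 ChIP and 580 input tags per kb, where the median Bmal1KO peak had 4.33 input tags per kb. Wild-type input there is not known, and only if it was alike does the input limit put the region at least 1.13-fold lower in wild type. The next lay on chromosome 6 (127125497-127128620), with 297.6 tags over 3123 bp and 10.1-fold enrichment, and was at least 2.53-fold lower in wild type under the larger limit. On chromosome 2 (150849981-150852364) Bmal1KO had 277 tags over 2383 bp with 11.7-fold enrichment, at least 2.94-fold lower in wild type. Chromosomes 5 (107871951-107875594) and 4 (148241307-148245329) had 277 and 211.8 tags and limits of 1.53-fold and 1.24-fold.

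Neighbouring regions had related ratios. For adjacent regions called in both and less than 5 kb apart, Pearson's correlation of the log2 tag ratio was 0.24 over 2882 pairs. It was 0.23 over 4526 pairs 5 to 20 kb apart, 0.15 over 6407 pairs 20 to 100 kb apart and 0.07 over 2918 pairs 100 to 1000 kb apart. Neighbours share both libraries and often a like density, so these values are descriptions only. A region next to one that was at least 2-fold lower was itself so in 39.8% of pairs under 5 kb apart. In that class 886 of the 2882 first regions were at least 2-fold lower. For pairs 100 to 1000 kb apart the value was 22.6%, where 531 of the 2918 first regions were so. Lower regions were thus themselves more frequent among close pairs.

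Windows of 2 Mb showed where such regions gathered. Over 562 windows with at least 8 regions of 50 or more mean tags, the median log2 tag ratio was -0.15 at the middle window, with 10th and 90th percentiles of -0.66 and 0.27. Of the 11983 regions of that strength, 15.5% were at least 2-fold lower and 5.24% at least 2-fold higher. The lowest window was chromosome 2 from 78 to 80 Mb, at -1.85, where 10 of 14 regions were at least 2-fold lower. It had 4091 tags over 97.5 kb in wild type and 1840 over 42.8 kb in Bmal1KO, so density was nearly equal at 42.0 and 43.0 tags per kb. Chromosome 11 from 8 to 10 Mb followed at -1.59, with 8 of 11 regions, and chromosome 9 from 46 to 48 Mb at -1.44, with 7 of 11. On chromosome 10 from 96 to 98 Mb, at -1.28, density was lower too, 33.6 against 43.3 tags per kb. Input per kb, as log2 of Bmal1KO over wild type, was 0.10, 0.15, 0.19 and 0.03 in these 4 windows, where the median of all windows was 0.08.

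At the other end, windows were higher by less. Chromosome 16 from 36 to 38 Mb was the highest, at 0.78, with 3180 tags in Bmal1KO and 2171 in wild type at nearly equal length, 22.8 and 23.9 kb. Density there was 139 tags per kb in Bmal1KO and 90.7 in wild type. Chromosome 15 from 34 to 36 Mb, at 0.61, had 153 against 75.9 tags per kb, and chromosome 11 from 84 to 86 Mb, also at 0.61, 166 against 112. A median of at least 2-fold lower was found in 15 of the 562 windows and at least 2-fold higher in 0. These windows are extremes of many. With the filling, 0 windows were at least 2-fold lower and 0 at least 2-fold higher, and the lowest, chromosome 6 from 98 to 100 Mb, was at -0.85. The chromosome 2 window was then at -0.77 and the chromosome 16 window at 0.68.

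Whole chromosomes differed little. The median log2 tag ratio was between -0.36 (chromosome 10) and -0.14 (chromosome 7), and the ratio of tag sums between -0.08 (chromosome 2) and 0.06 (chromosome 8). The share of regions at least 2-fold lower was 18.3% to 26.2%. Input per kb of called sequence had a log2 ratio of 0.07 (chromosome 14) to 0.18 (chromosome 16) in all 19. Each library's input was taken over its own called sequence, shorter in Bmal1KO, so this ratio does not compare the same bases. Over 237 windows of 10 Mb with at least 15 regions the input ratio was 0.09 at the median, and 0.50 at most, from 80 to 90 Mb of chromosome 13. In that window 9 of 25 regions were at least 2-fold lower in Bmal1KO, and the part of input there was not tested.

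**Figure D5:**
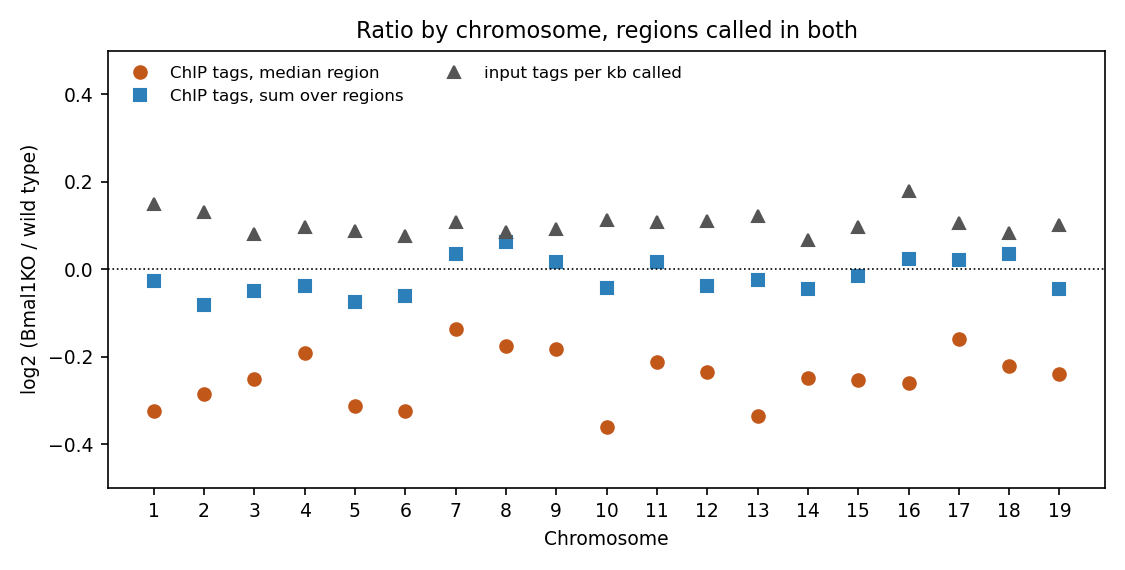
Log2 ratio of Bmal1KO over wild type (y axis) for chromosomes 1 to 19 (x axis) in regions called in both: median region tags (circles), tag sums (squares) and input tags per kb called (triangles). Median ratios are below 0 on every chromosome while tag sums lie between -0.08 and 0.06.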

How the data were processed

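H3K27ac ChIP and input libraries of wild-type and Bmal1KO RAW264.7 cells were analysed from the authors' peak lists, 1 per genotype, without pooling. The tools HOMER 5.1, MACS3 3.0.3, Picard 3.4.0, SAMtools 1.23, BWA 0.7.19-r1273 and fastp 1.0.1 and the build mm39 are named, with no role, per the submitters' processing notes. Per the file headers, HOMER findPeaks in histone mode set each ChIP library against its own input. Tags per peak are a signal, scaled by the authors to 10 M tags per library. Input tags, also a deposited signal, were rescaled here to 10 M. The deposited fold over input is a ratio, and a fold of at least 4 and a p-value of at most 0.0001 were required, per the file headers. The authors' score was used only to take the upper 50% of peaks.

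Merging, sums, ratios and intervals were computed in Python 3.11.15 with pandas 2.3.3 and scipy 1.17.1, and the code was tested on simulated peaks. Named regions were the 10 lowest and 10 highest tag ratios at 100 or more mean tags, and the 5 regions with most tags called in 1 genotype. The members, rules and lists were chosen with earlier results of these data known. Gene lists and motif searches fixed at the outset were not used, because the gene and promoter tables are of GRCm38 and the peaks of mm39. The peak list of the other knockout was not used.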

Additional observations from a re-analysis of the deposited data

Results flagged for a closer look

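Peaks outside chromosomes 1 to 19, which no comparison above used, also carried signal over input. On chromosome X, 601 wild-type and 452 Bmal1KO peaks were called, and the strongest had 984.6 and 1362 tags. On unplaced or unlocalised sequence and the remaining chromosomes there were 31 and 24 peaks, and the strongest, on the same unplaced sequence in both lists, had 14660 wild-type and 24860 Bmal1KO tags at 8.17-fold and 12.9-fold over input.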

How the results depend on the processing

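No paired analysis was possible because each genotype had 1 ChIP library and the result comes from no test. Gene and promoter results were not run, for want of a gene table of this build. The median log2 tag ratio of -0.25 turned positive at 100 or more mean tags (0.038) and at a called length ratio of at least 0.8 (0.11), and was -0.19 as a share of the tags in peaks, -0.15 with both lists at 6-fold or more over input -0.10 with uncalled sequence at the tag minimum and -0.067 with it at the larger of the tag minimum and the input limit. Regions at least 2-fold lower and higher, 3798 and 941, were 857 and 505 at 100 or more mean tags (62.9% of them lower), 2009 and 518 at 6-fold over input, 408 and 615 with the filling, 200 and 460 under the larger limit (30.3% lower), and 100 and 390 at like length (20.4% lower). At 1.5-fold they were 6156 and 2746. The median log2 length ratio of -0.30 was -0.22 at 100 or more mean tags and -0.28 at 6-fold over input. The median log2 density ratio of 0.04 was 0.058 with peaks within 1000 bp merged, 0.24 at 100 or more mean tags and 0.10 as a share of the tags in peaks. The gap between densest and sparsest groups, 1.03, was 0.75 by wild-type density, 1.41 by Bmal1KO density and 0.44 with the filling. Wild-type peaks without a Bmal1KO peak, 38.9%, and Bmal1KO peaks without a wild-type peak, 23.8%, were 40.9% and 26.4% at an overlap of 50% of the shorter peak, 27.3% and 17.3% in the upper 50% by score, 40.0% and 29.9% at 6-fold over input and 33.8% and 19.2% when a peak within 1000 bp counted. Subtracting input moved none of the ratios and counts for which it was tried beyond its counting range or 1.5 times. Of the 29 named regions called in both, 0 changed direction under another scale, input subtraction, wider merging, the filling or the larger limit. They were chosen for extreme ratios, so a kept direction says little. The filling moved the log2 ratio of 18 of the 29 out of its counting interval, and the larger limit that of 21. Merging within 1000 bp moved 4 of them: the log2 ratio went from 4.32 to 3.16 for chromosome 12 from 112878265, from -3.81 to -2.39 for chromosome 9 from 107999834, from -3.88 to -2.64 for chromosome 19 from 34491352 and from -3.88 to -3.08 for chromosome 4 from 141803793. The cause of these shifts was not tested, except that subsets hold fewer regions. The 1.5-fold and subset settings were fixed at the start, and the filling, the larger limit, the like-length class and the density groups were added after the data were seen. Depth limits all values near the tag minimum, and the lower depth of Bmal1KO cannot be told apart from genotype.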
